A study of Mus musculus with 12 samples.

Results

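The genes described here encode the proteins of the extracellular matrix of the liver and the proteases that cut it: collagens, laminins, a set of matrix glycoproteins and proteoglycans, matrix metalloproteinases and their tissue inhibitors. They were chosen by symbol, with no measured value in the rule. A probe set of the array belonged to the group if its only gene symbol began with Col, Lama, Lamb, Lamc, Mmp or Timp followed by a digit, or was Fn1, Sparc, Lox, Tgfbi, Tnc, Postn, Bgn, Nid1, Hspg2 or Vtn. This gave 134 of 22626 probe sets and 78 of 12393 genes. By role they were 9 fibrillar collagens, 8 collagens of basement membranes, 19 other collagens, 10 laminin chains, 10 other matrix proteins, 18 matrix metalloproteinases and 4 metalloproteinase inhibitors. A gene is described by its probe set of highest average level on the 12 arrays, called the shown probe set, and counts of genes are of shown probe sets unless another count is named. Of the 42 genes with several probe sets, 24 had all of them called in 1 direction between the populations of water mice and 4 had opposite calls.

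Expression was measured on 12 Affymetrix arrays, in groups of 3, of hepatocytes and of a fraction labelled mesenchymal cells, both isolated from livers of male C57BL/6N mice 12 weeks old. Mice of the treated groups drank phenobarbital at 50 mg/kg per day for 14 days, and mice of the control groups drank tap water. All 4 groups were thus hepatocytes with water, hepatocytes with phenobarbital, mesenchymal cells with water and mesenchymal cells with phenobarbital, all of 1 strain and sex, with no transgene or deletion named. Phenobarbital, a sedative, acts in hepatocytes through the nuclear receptor CAR, and the study asked how the drug acts on the different cells of the liver. The labels do not say how many animals stand behind an array, so every p-value here measures the spread between these samples, which may be technical. Values are log2 expression after robust multi-array averaging (RMA), and differences are on that scale, so that a difference of 1 is a 2-fold change.

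Collagens are triple helices of 3 chains. The fibrillar types form the fibres of connective tissue and of scars, and the network-forming type IV joins with laminin, nidogen and perlecan in basement membranes. In the healthy liver the sinusoid has little organised basement membrane, stellate cells and portal fibroblasts are the main source of fibrillar collagen, sinusoidal endothelium contributes type IV collagen, and hepatocytes release fibronectin and vitronectin into the plasma. Matrix metalloproteinases are zinc proteases that degrade these proteins, and the tissue inhibitors of metalloproteinases block them.

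The labels were checked against lists of cell type markers. The mean level of 14 hepatocyte markers ran from 14.06 to 14.19 on the 6 hepatocyte arrays and from 9.69 to 11.43 on the 6 mesenchymal arrays, so hepatocyte RNA was present in the latter. On the mesenchymal arrays 12 Kupffer cell markers averaged 13.51 to 13.95 and 15 markers of sinusoidal endothelium 12.07 to 12.63, against at most 6.55 on any hepatocyte array for either list. The 14 stellate cell and fibroblast markers averaged 7.55 to 7.98 there, and 6 of them, as well as 3 of 5 smooth muscle markers, lay below the 40th percentile of the array on all mesenchymal arrays of a group. The fraction labelled mesenchymal thus carried the defining markers of macrophages and endothelium as well as some of stellate cells, and no gene below can be assigned to one of these cells. The first water array of the mesenchymal cells stood apart, with the lowest endothelial (12.07), stellate (7.55) and hepatocyte (9.69) means. With it, the first water array of the hepatocytes had the lowest mean of 10 clock genes (7.09 and 7.62, against 8.50 to 8.86 on the other 10 arrays). The second mesenchymal phenobarbital array had the highest mean of 4 neutrophil markers (9.68, against 6.20 to 7.91 on the other mesenchymal arrays).

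The promoters of the genes with the widest differences between the populations are shown as the 250 bases before the annotated start, 5′ to 3′ on the gene's strand, from the RefSeq promoter table of mouse build GRCm38.p6. Capitals mark matches on either strand to 5 short motifs: the TATA box (TATAAA), the CCAAT box (CCAAT), the GC box (GGGCGG), the AP-1 motif (TGANTCA) and the HNF1 motif (GTTAAT). Timp3 (chr10:86300162-86300411, plus strand) and Sparc (chr11:55420081-55420330, minus strand) had the widest differences towards mesenchymal cells. Vtn (chr11:78498870-78499119, plus strand) and Col18a1, with annotated starts at chr10:77166531-77166780 and chr10:77113706-77113955 (minus strand), had the widest towards hepatocytes.
Timp3: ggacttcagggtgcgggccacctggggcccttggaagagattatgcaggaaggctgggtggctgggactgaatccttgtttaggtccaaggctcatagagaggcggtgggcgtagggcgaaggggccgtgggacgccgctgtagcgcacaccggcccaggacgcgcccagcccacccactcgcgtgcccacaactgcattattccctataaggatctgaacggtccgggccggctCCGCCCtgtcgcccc
Sparc: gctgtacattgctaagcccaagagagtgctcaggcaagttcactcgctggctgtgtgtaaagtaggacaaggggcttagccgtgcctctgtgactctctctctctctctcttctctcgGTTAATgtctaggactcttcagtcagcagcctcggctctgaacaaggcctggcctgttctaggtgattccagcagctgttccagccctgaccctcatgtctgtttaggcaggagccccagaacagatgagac
Vtn: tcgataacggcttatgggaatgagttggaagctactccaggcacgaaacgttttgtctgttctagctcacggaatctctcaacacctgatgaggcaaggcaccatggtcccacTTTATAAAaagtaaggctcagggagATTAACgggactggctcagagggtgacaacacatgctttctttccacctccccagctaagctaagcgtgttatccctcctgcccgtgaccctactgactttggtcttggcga
Col18a1, first start: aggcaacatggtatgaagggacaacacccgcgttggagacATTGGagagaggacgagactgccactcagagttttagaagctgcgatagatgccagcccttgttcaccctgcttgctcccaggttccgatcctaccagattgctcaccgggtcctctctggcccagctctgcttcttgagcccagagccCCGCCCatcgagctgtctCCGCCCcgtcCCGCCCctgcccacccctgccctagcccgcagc
Col18a1, second start: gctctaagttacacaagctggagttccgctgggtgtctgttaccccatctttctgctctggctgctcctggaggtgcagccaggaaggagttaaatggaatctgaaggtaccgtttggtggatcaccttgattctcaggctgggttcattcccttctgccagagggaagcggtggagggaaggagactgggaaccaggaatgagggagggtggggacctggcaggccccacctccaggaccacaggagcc
Counted back from the base before the start, the Timp3 window held a GC box at -15 and the Sparc window an HNF1 motif at -132. The Vtn window held overlapping TATA boxes on both strands at -137 and -135 and an HNF1 motif at -112. The first Col18a1 window held a CCAAT box at -210 and GC boxes at -61, -43 and -33, and the second held none of the 5 motifs. Of the 78 genes, 57 matched the table, with 66 windows. Over windows of 300 bases, which also take in 50 bases after the start, 27.3% of the 66 held a TATA box, against 13.6% of all 32851 windows. The GC box was found in 50.0% of these windows and 35.7% of all, and the CCAAT box in 31.8% and 37.4%. The AP-1 motif occurred in 13.6% and 7.81%, and the HNF1 motif in 9.09% and 7.10%. Such matches describe the letters of these windows and were not tested as binding sites.

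Many of the matrix genes gave a signal near the bottom of the arrays. On the hepatocyte arrays the 40th percentile of all probe sets lay between 6.54 and 6.60 and on the mesenchymal arrays between 6.64 and 6.68, and a level below it is called low here. Of the 78 genes, 28 were low on all 12 arrays, 16 were above the percentile on all 12 and 34 were mixed. Among probe sets, 56 of 134 were low on every array, 41.8% against 28.8% of all probe sets. By role, 13 of 18 matrix metalloproteinases and 11 of 19 other collagens were consistently above the percentile in neither population, whereas 8 of 10 other matrix proteins were in at least the mesenchymal cells. Differences among low probe sets are rough. Of the 56 low ones, 51.8% were called lower in mesenchymal cells, and of all 6509 low probe sets on the array 53.2% were, so this share is close to the background. Counted by genes, 18 of the 28 low ones (64.3%) were called lower in water mice and 1 higher. The median difference in water mice was -0.36 over these 28 genes and -0.3 over all 6509 low probe sets.

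The populations were compared by limma, 3 against 3 arrays, with the spread estimated on all 12 arrays and Benjamini-Hochberg adjustment over all probe sets. In water mice, 25 of the 78 genes were higher in mesenchymal cells than in hepatocytes and 36 were lower, at an adjusted p under 0.05. Over probe sets this was 50 of 134 higher, or 37.3%, against a background of 32.6% of all probe sets, and 54 lower, or 40.3%, against 43.1%. Most of the array thus differed between the populations, and the matrix genes did so about as often. With a difference of at least 2-fold required as well, 38 probe sets were higher, 28.4% against 16.8% of all, the shown ones of 19 genes and others of Hspg2 and Mmp9, and 14 probe sets of 10 genes were lower, 10.4% against 13.1%. The median difference over the 78 genes was -0.24, beside -0.16 over all probe sets. Centring the arrays on their medians moved the median over all probe sets to -0.378, and centring on the 75th percentile to -0.292. The share of higher among all called probe sets then fell from 43% to 32.5% and 36.1%. Under these centrings 5 and 2 of the 61 called genes lost their call, none turned its direction, and all 29 that differed at least 2-fold kept theirs. Another 10 and 5 genes became called, all as lower, which gave 20 higher and 46 lower under the first centring and 23 and 41 under the second. Those lost were Col6a3, Hspg2 and Mmp9 under the first and Col6a1 and Lama1 under both, while Col1a1 and Mmp2 were among those called under the first. Without the first water arrays of both populations, 24 genes were higher and 31 lower. When single arrays were left out in turn, 12 of the 61 lost their call at least once (Col4a6, Col6a1, Col6a2, Col6a3, Lama1, Lama5, Mmp1b, Mmp9, Mmp17, Mmp20, Timp1 and Tnc), all of them with differences under 1. A fit on only the 6 arrays compared ended the calls of Col4a6, Lama1, Lama5, Mmp9, Timp1 and Tnc.

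**Figure D1:**
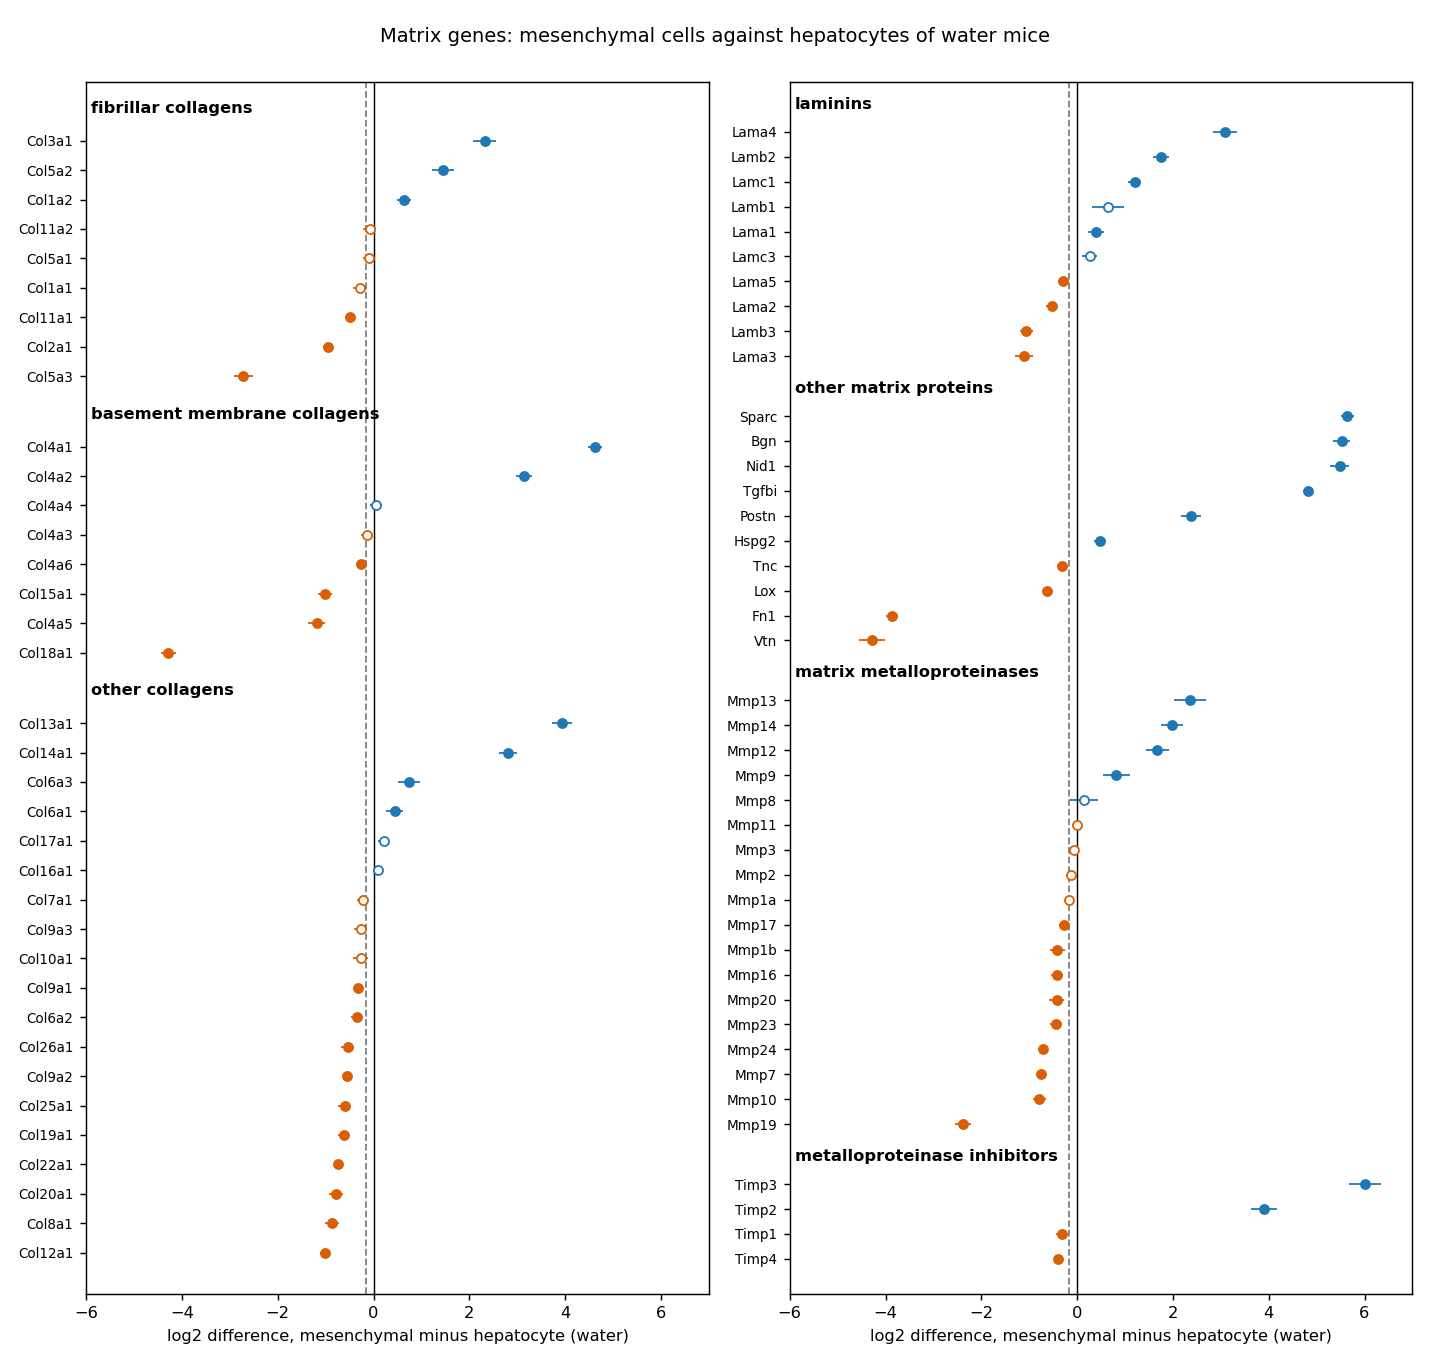
Log2 difference between mesenchymal cells and hepatocytes of water mice for the 78 matrix genes by role (points, with the standard error of the fit; filled points passed an adjusted p of 0.05, blue is higher and orange lower in mesenchymal cells). The dashed line is the median of all probe sets, -0.16; the widest differences, from Timp3 at 6.01 to Col18a1 and Vtn at -4.28, lie far from it.

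Among the fibrillar collagens 3 of 9 genes were higher in mesenchymal cells, 3 were lower and 3 did not pass, with a median difference of -0.10. These counts, and those of the other roles below, stand beside 32.6% higher and 43.1% lower among all probe sets. Col3a1, the single chain of type III collagen, read 4.77, 4.92 and 5.58 on the hepatocyte arrays of water mice and 7.22, 7.53 and 7.48 on the mesenchymal ones. Every mesenchymal array lay above every hepatocyte array, and the difference was 2.32 (SE 0.24, adjusted p = 1.86e-06). A second probe set of Col3a1 was low on all arrays and differed by -0.03. Col5a2, a chain of type V collagen that sets fibril diameter, was higher by 1.46 (SE 0.23, adjusted p = 9.55e-05) and by 0.84 on its other probe set. Col1a2, the second chain of type I collagen, read 7.43, 7.24 and 7.28 in hepatocytes and 7.74, 8.03 and 8.10 in mesenchymal cells, groups that lie close but do not overlap. Its difference was 0.64 (SE 0.15, adjusted p = 0.002), and its other probe set, low on all 12 arrays, differed by -0.05. Col1a1, the main chain of the same collagen, was low on every array, between 4.79 and 5.46, and its difference of -0.28 (SE 0.14) did not pass (adjusted p = 0.091), although without the third hepatocyte array it did, at -0.40 (adjusted p = 0.0229 by limma). Another probe set of Col1a1 was called lower at -0.44 (adjusted p = 0.00284), and the mean of its probe sets passed at -0.36 (adjusted p = 0.0105). In these bulk samples, fewer cells of a type and less RNA per cell cannot be told apart.

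Col5a3, the third type V chain, went the other way. It read 8.26, 8.27 and 8.17 in hepatocytes and 5.09, 5.82 and 5.64 in mesenchymal cells, a difference of -2.72 (SE 0.20, adjusted p = 6.98e-08), opposite to that of Col5a2. Its second probe set was low everywhere and differed by -0.32 without passing. Col5a1 gave -0.10 and did not pass, and of its further probe sets 1 was called higher (0.33) and 1 lower (-0.37), so no direction can be given for it. The cartilage collagens Col2a1 and Col11a1 were lower by -0.94 and -0.50, the latter between low levels, while Col11a2 at -0.08 did not pass.

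The basement membrane collagens had members at both ends, with 2 of 8 higher, 4 lower and 2 not past the threshold. Col4a1 and Col4a2, the chains of the common type IV network, are transcribed in opposite directions from starts 21 bases apart on chromosome 8 (11312826 on the minus strand and 11312805 on the plus strand, GRCm38.p6). By these coordinates their annotated 5′ ends overlap. Col4a1 read 6.90, 6.83 and 6.35 in hepatocytes and 11.24, 11.28 and 11.43 in mesenchymal cells. Its difference of 4.62 (SE 0.14, adjusted p = 4.09e-11) is 24.6-fold, and its second probe set gave 3.27. Col4a2 read 8.03, 8.14 and 7.92 against 10.82, 11.17 and 11.52, a difference of 3.14 (SE 0.17, adjusted p = 5.07e-09) or 8.80-fold. Both genes were therefore far higher in the mesenchymal fraction, on all of its arrays. None of the 4 remaining type IV chains was: Col4a3 (-0.14) and Col4a4 (0.05) did not pass, while Col4a5 (-1.19) and Col4a6 (-0.27) were lower. Col4a3, Col4a4 and Col4a5 were low on every array.

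Col18a1 encodes type XVIII collagen, the source of the fragment endostatin, and is a collagen made by hepatocytes. It read 11.68, 11.56 and 11.58 in hepatocytes and 7.23, 7.32 and 7.43 in mesenchymal cells. The difference of -4.28 (SE 0.16, adjusted p = 1.92e-10) makes it 19.4-fold lower, its second probe set gave -4.65, and the arrays of the populations were far apart. Beside it, the 14 hepatocyte markers were all lower, with a median difference of -4.33. Col15a1, its closest relative, was lower by -1.01 (SE 0.15, adjusted p = 5.4e-05), from 5.96 to 6.33 in hepatocytes to 5.09 to 5.20, all of them low levels.

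Of the 19 other collagens, 4 were higher, 10 lower and 5 did not pass, with a median of -0.33. The widest differences were those of 2 genes higher in mesenchymal cells. Col13a1, a collagen that spans the cell membrane, read 6.74, 6.70 and 6.47 in hepatocytes and 10.10, 10.72 and 10.87 in mesenchymal cells, a difference of 3.93 (SE 0.21, adjusted p = 3.44e-09). Col14a1, which decorates the surface of collagen fibrils, read 6.25, 6.35 and 6.34 against 8.70, 9.29 and 9.39, a difference of 2.81 (SE 0.19, adjusted p = 3.63e-08), or 1.92 on its other probe set. For both genes the first water array of the mesenchymal cells was the lowest of its group. Of the chains of type VI collagen, which forms beaded filaments, Col6a3 (0.74) and Col6a1 (0.44) were higher and Col6a2 (-0.35) lower. None of these 3 calls held in every fit with an array left out. With replicate numbers as a block, Col6a1 had an adjusted p of 0.05 and was lost. The widest difference the other way was that of Col12a1, the fibril-associated type XII chain, at -1.02 (SE 0.09, adjusted p = 5.76e-07), followed by Col8a1 (-0.87), Col20a1 (-0.78) and Col22a1 (-0.74). Col22a1 was low on every array.

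Of the 10 laminin chains 4 were higher, 4 lower and 2 did not pass. Lama4, the alpha chain typical of vessel walls, read 7.16, 7.40 and 6.91 in hepatocytes and 9.50, 10.56 and 10.64 in mesenchymal cells, a difference of 3.08 (SE 0.25, adjusted p = 2.54e-07). Its lowest mesenchymal value came from the first water array, on which the endothelial markers were lowest too, and without that array the difference was 3.44. Its other probe set gave 2.46. Lamb2 was higher by 1.75 (SE 0.17) and Lamc1, the gamma chain shared by most laminins, by 1.20 (SE 0.14), at adjusted p-values of 1.48e-06 and 8.44e-06. A second probe set of Lamc1 contradicted this, with 6.89 to 7.02 in hepatocytes and 6.17 to 6.23 in mesenchymal cells (-0.74), and the direction for Lamc1 depends on the probe set. Lama1 passed narrowly at 0.39 between low levels, and not with the replicate block (adjusted p = 0.0572 by limma) or without the second hepatocyte array (0.23, adjusted p = 0.22). Lamb1 at 0.65 (SE 0.33, adjusted p = 0.09) and Lamc3 at 0.26 did not pass. Without the second hepatocyte array Lamb1 passed at 0.96 (adjusted p = 0.0198 by limma). Of its other probe sets, 1 was called higher at 0.78 (adjusted p = 0.0018) and 1 did not pass (0.21), and the mean of the probe sets passed at 0.55 (adjusted p = 0.00897). Chains known from epithelia went the other way: Lama3 was lower by -1.11 (SE 0.19) and Lamb3 by -1.06 (SE 0.14), the latter between low levels. Lama2 and Lama5 were lower by -0.52 and -0.29, and another probe set of Lama5 was called higher at 0.40. The Lama5 difference was -0.14 without the first water arrays of both populations and did not pass.

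All 10 other matrix proteins differed between the populations, 6 higher and 4 lower, with a median of 1.42. Of all probe sets 32.6% were higher and 43.1% lower. Sparc, a collagen-binding protein that regulates matrix assembly, read 7.10, 6.72 and 6.95 in hepatocytes and 12.31, 12.57 and 12.79 in mesenchymal cells. Its difference of 5.64 (SE 0.13, adjusted p = 3.87e-12) is 49.7-fold. Bgn, the small proteoglycan biglycan, read 6.86, 6.75 and 6.97 against 12.00, 12.49 and 12.65, a difference of 5.52 (SE 0.18). Nid1, or nidogen, links laminin to type IV collagen, and it read 5.84, 6.06 and 5.45 against 10.94, 11.34 and 11.51 (5.48, SE 0.20). Tgfbi, an adhesion protein induced by TGF-beta, read 6.62, 6.67 and 6.51 against 11.37, 11.33 and 11.52 (4.81, SE 0.10). For these 4 genes, at adjusted p-values from 2.26e-12 to 1.42e-10, the lowest mesenchymal array lay more than 4 log2 units above the highest hepatocyte array, and every further probe set was called in the same direction. Postn, or periostin, was higher by 2.37 (SE 0.21, adjusted p = 4.63e-07), and Hspg2, the core protein of perlecan, by 0.48 (SE 0.12, adjusted p = 0.00374) on its shown probe set and 2.51 on the other.

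Fn1 and Vtn, the plasma proteins of the group, were the most unequal in the opposite direction. Fn1, or fibronectin, read 13.18, 13.10 and 13.04 in hepatocytes and 9.07, 9.40 and 9.26 in mesenchymal cells, a difference of -3.86 (SE 0.13, adjusted p = 7.04e-11) or 14.5-fold, and -3.10 on its other probe set. Vtn, or vitronectin, read 13.97, 14.05 and 13.96 against 9.25, 10.18 and 9.71, a difference of -4.28 (SE 0.27, adjusted p = 1.76e-08), and -5.22 on its other probe set. On the shown probe sets neither gene was low in the mesenchymal cells, and their values there followed those of the hepatocyte markers from array to array. The other probe set of Fn1 was low on the mesenchymal arrays and highest on the second phenobarbital array (5.77). The marker mean was 9.69, 10.72 and 10.47 on the 3 water arrays and 11.43, 10.55 and 10.21 on the 3 phenobarbital arrays, where Vtn read 10.89, 9.96 and 9.69 and Fn1 9.69, 9.29 and 9.16. The lowest and the highest of the 6 arrays were the same ones for the markers, for Vtn and for Fn1. How much of the mesenchymal signal of either gene came from hepatocyte RNA was not tested. Lox, the enzyme that crosslinks collagen, was lower by -0.62 (SE 0.11, adjusted p = 0.000315) and Tnc, or tenascin C, by -0.31 (SE 0.12, adjusted p = 0.0375), both between low levels.

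**Figure D2:**
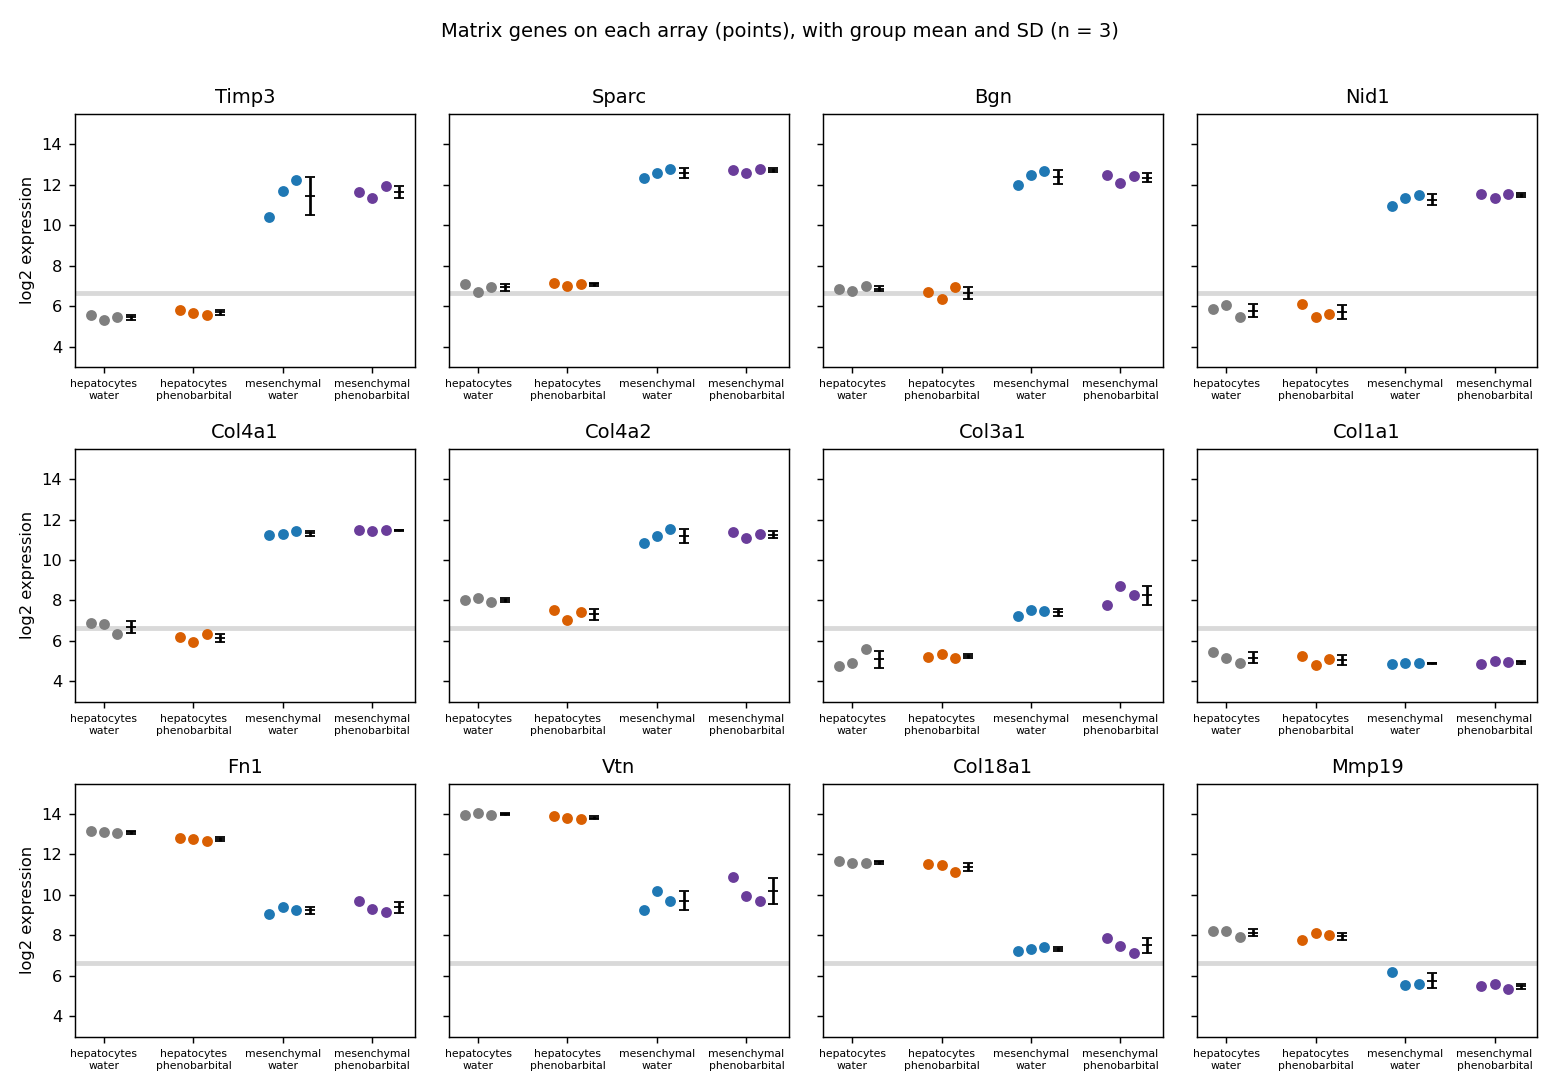
Log2 expression of 12 matrix genes on each of the 12 arrays (points), with the mean and SD of each group of 3 (black); the grey band spans the 40th percentiles of the arrays, 6.54 to 6.68. Sparc, Bgn, Nid1, Timp3 and the type IV pair are high in mesenchymal cells and Fn1, Vtn, Col18a1 and Mmp19 in hepatocytes, while Col1a1 lies below the band on all arrays.

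Among the 18 matrix metalloproteinases 4 were higher in mesenchymal cells, 9 lower and 5 did not pass, with a median of -0.21. The background over all probe sets was 32.6% higher and 43.1% lower. Mmp14, a membrane-bound protease that activates other family members, read 8.91, 7.94 and 7.99 in hepatocytes and 9.88, 10.46 and 10.42 in mesenchymal cells, a difference of 1.98 (SE 0.23, adjusted p = 7.64e-06), or 1.5 on its other probe set. It was the only metalloproteinase above the 40th percentile on all arrays of both populations. Mmp13, a collagenase, read 3.71, 3.13 and 3.80 against 6.57, 5.60 and 5.53 (2.35, SE 0.33, adjusted p = 3.89e-05). Mmp12, the macrophage elastase, read 4.35, 4.67 and 4.68 against 6.92, 5.90 and 5.88 (1.67, SE 0.24, adjusted p = 4.16e-05). For both genes the hepatocyte levels were low. In mesenchymal cells of water mice every value of Mmp13, and every value of Mmp12 but the first, was low as well. For both, the first water array was the highest of the mesenchymal group. Leaving that array out gave 2.01 for Mmp13 and 1.32 for Mmp12. Mmp9, a gelatinase, showed the same array pattern, with 8.0, 6.83 and 6.62 in mesenchymal cells against 6.18 to 6.41, and passed at 0.82 (SE 0.28, adjusted p = 0.0174), with 1.31 on its other probe set. Without the first mesenchymal array it was 0.40 (adjusted p = 0.0345 by limma). Without the first water arrays of both populations it was 0.32 and did not pass (adjusted p = 0.0987 by limma). On the same water arrays the neutrophil markers averaged 7.91, 7.0 and 6.41 and 8 markers of T, NK and B cells 8.64, 8.01 and 7.89, each highest on the first. On the second phenobarbital array, where the neutrophil mean was 9.68, Mmp9 read 6.94. The part of these cells in the Mmp9 value was not tested.

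Mmp19 was the metalloproteinase most unequal towards hepatocytes. It read 8.24, 8.24 and 7.94 there and 6.17, 5.54 and 5.58 in mesenchymal cells, a difference of -2.38 (SE 0.17, adjusted p = 5.96e-08) that left the mesenchymal arrays at low levels, and its other probe set gave -1.87. Mmp10 (-0.79), Mmp7 (-0.75) and Mmp24 (-0.71) followed, with Mmp10 low on every array. Mmp2, the other gelatinase, lay between 6.32 and 6.71 on all 12 arrays and did not pass (-0.12, SE 0.11, adjusted p = 0.325). Mmp8, the collagenase of neutrophils, read 5.57 to 6.11 on 11 of the 12 arrays and did not pass (0.14, SE 0.29). The exception was the second mesenchymal phenobarbital array with 7.04, the array with the highest neutrophil marker mean of 9.68.

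The 4 inhibitors divided evenly. Timp3, which binds to the matrix after its secretion, read 5.55, 5.29 and 5.48 in hepatocytes and 10.42, 11.69 and 12.23 in mesenchymal cells. Its difference of 6.01 (SE 0.34, adjusted p = 6.8e-09), or 64.2-fold, was the widest among the shown probe sets of the 78 genes. The first water array was again the lowest of the mesenchymal arrays, and without it the difference was 6.52. Timp2 read 7.01, 5.65 and 6.65 against 10.45, 10.23 and 10.34 (3.90, SE 0.27, adjusted p = 4.34e-08), and of its 6 probe sets 5 were called higher and 1 lower (-0.87). Timp1, the inhibitor that rises in injured liver, read 5.55, 6.04 and 5.90 against 5.49, 5.48 and 5.57, all low levels, with a difference of -0.32 (SE 0.13, adjusted p = 0.0444) that did not pass with the replicate block (adjusted p = 0.0552 by limma). Timp4 was lower by -0.39 (SE 0.09, adjusted p = 0.00234), also between low levels.

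Several of these genes lie next to each other in the genome, in 13 neighbouring pairs of 21 genes by the order of the RefSeq gene table. Col3a1 and Col5a2 on chromosome 1 were both higher (2.32 and 1.46), as were Col4a1 and Col4a2 (4.62 and 3.14). In the metalloproteinase cluster of chromosome 9, Mmp13 (2.35) and Mmp12 (1.67) were higher while the next genes Mmp1b, Mmp3, Mmp1a and Mmp10 ran from -0.06 to -0.79. The pair Col6a2 and Col6a1 on chromosome 10 differed in direction (-0.35 and 0.44).

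Genes that process, bind or cut the matrix were read from lists kept apart from the members. Of 17 collagen processing enzymes, 11 were higher in mesenchymal cells of water mice and 3 lower, with a median of 1.17. These counts stand, like those of the lists that follow, beside 32.6% higher and 43.1% lower among all probe sets. The widest were Pcolce2, an enhancer of procollagen cleavage (6.80), Serpinh1, the collagen chaperone (3.08), and Crtap, a partner of prolyl hydroxylation (3.08), and the lower ones were Bmp1, the procollagen protease (-2.75), P4hb (-0.99) and Loxl4 (-0.59). Of 26 further matrix glycoproteins and proteoglycans 12 were higher and 6 lower, led by Ecm1 (4.77), Dcn (4.72) and Prelp (4.44) and, in the other direction, Smoc2 (-1.55), Fbln1 (-0.79) and Fmod (-0.68). Of these, Ecm1 and Dcn are also among the 14 stellate cell and fibroblast markers, of which 9 were higher, 2 lower and 3 did not pass. Matrix receptors gave 10 higher and 8 lower of 20. The hyaluronan receptor Cd44 (7.32), Sdc3 (5.06) and Cd36 (5.02) were the widest upwards, and the syndecans Sdc1 (-3.91), Sdc4 (-3.17) and Sdc2 (-2.98) the widest downwards, so the members of the syndecan family differed in direction. Of 17 plasminogen system and other matrix proteases 8 were higher, led by Ctss (8.33), Adam10 (2.98) and Adamts1 (2.90), and 5 lower, led by Serpinf2 (-4.90), Plg (-4.48) and Reck (-1.29). Of 16 genes of the TGF-beta and PDGF pathways 11 were higher, led by Smad6 (4.47), Tgfb1 (3.32) and Tgfbr2 (2.99), and 2 lower, Pdgfa (-0.72) and Pdgfrb (-0.36). Pdgfrb is among the stellate cell markers too.

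The same comparison in phenobarbital mice called 28 of the 78 genes higher in mesenchymal cells and 34 lower. Over probe sets, 51 (38.1%) were higher against a background of 32.5%, and 56 (41.8%) lower against 45.3%. At least 2-fold higher were 39 probe sets, 29.1% against 17.1% of all, the shown ones of 21 genes and another of Hspg2, and at least 2-fold lower 12 probe sets of 8 genes, 8.96% against 13.4%. The share of higher among all called probe sets was 41.8%, and 32.2% or 34.4% with the arrays centred on their medians or 75th percentiles. The medians gave 24 higher and 47 lower genes and the 75th percentiles 26 and 41. Of the 78 genes, 57 were called in the same direction with water and with phenobarbital, 4 were called with water only, 5 with phenobarbital only, 12 with neither, and none was called in opposite directions. These are different arrays of the same 2 populations, but both comparisons used the spread of all 12 arrays. Timp3 (5.95, SE 0.34), Nid1 (5.77, SE 0.20), Bgn (5.68, SE 0.18), Sparc (5.63, SE 0.13), Col4a1 (5.30, SE 0.14) and Tgfbi (4.88, SE 0.10) were the widest upwards. Next came Col13a1 (4.04), Col4a2 (3.93), Lama4 (3.80), Timp2 (3.57), Col3a1 (3.01), Col14a1 (2.96), Postn (2.67), Mmp13 (2.51), Mmp14 (2.23), Mmp12 (1.59), Lamb2 (1.55), Lamc1 (1.52), Lamb1 (1.51) and Col5a2 (1.46). Lamb1 and Col6a3 (1.27) had missed the 2-fold mark or the threshold with water. Lower were Col18a1 (-3.88, SE 0.16), Vtn (-3.64, SE 0.27), Fn1 (-3.37, SE 0.13), Mmp19 (-2.47, SE 0.17), Col5a3 (-2.24, SE 0.20), Col4a5 (-1.25), Lamb3 (-1.23) and Mmp7 (-1.04). Of these, Col4a5 and Lamb3 were low on every array.

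Smaller differences in phenobarbital mice were those of Col1a2 (0.71), Mmp9 (0.67), Hspg2 (0.60), Lama3 (-0.74), Col15a1 (-0.94) and Timp4 (-0.53), which passed, Mmp9 not with the replicate block (adjusted p = 0.0566 by limma). The Mmp9 call was also lost under both centrings and on leaving out any single hepatocyte array. It was lost too without the second or the third mesenchymal phenobarbital array. Col1a1 (-0.12), Lox (-0.26), Tnc (-0.22), Mmp2 (-0.08), Mmp8 (0.33) and Timp1 (0.06) did not pass. Of these 6, Lox, Tnc and Timp1 had been called lower with water. Lox missed at an adjusted p of 0.0534, and the mean of its probe sets passed at -0.43 (adjusted p = 0.000298 by limma). With the arrays centred on their medians Lox (-0.49), Tnc (-0.45), Col1a1 (-0.35) and Mmp2 (-0.31) all passed as lower. Whether the population difference of any gene itself changed with the drug is the difference of effects given further on.

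Phenobarbital changed no matrix gene in hepatocytes past the threshold. The test (limma on the 6 hepatocyte arrays, 3 against 3) called 0 of the 134 probe sets and 9 of all 22626, a background of 0.0398%. At an unadjusted p under 0.05 there were 12 probe sets of 10 genes, or 8.96%, against 7.47% of all probe sets, a share near the background. For 7 of these genes the shown probe set was among them, and for Col9a1, Tgfbi and Timp3 another one. Groups of 3 that did not overlap were found for 18 probe sets, the shown ones of 13 genes among them, 13.4% of the probe sets against 13.7% of all. Of the 78 genes 46 had a negative and 32 a positive difference, with a median of -0.04 against 0.01 over all probe sets.

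Within that limit the smallest p-values belonged to Col4a2 and Fn1. Col4a2 read 8.03, 8.14 and 7.92 with water and 7.53, 7.04 and 7.41 with phenobarbital. The groups did not overlap, and the difference was -0.71 (SE 0.14, 95% interval -1.03 to -0.38, unadjusted p = 0.000914, adjusted p = 0.333 by limma). Fn1 read 13.18, 13.10 and 13.04 against 12.83, 12.77 and 12.65, also without overlap, a difference of -0.35 (SE 0.07, 95% interval -0.52 to -0.18, adjusted p = 0.383 by limma). Its second probe set differed by -0.09. Col4a1, the head-to-head partner of Col4a2, read 6.90, 6.83 and 6.35 against 6.18, 5.94 and 6.35, so 1 array of each group met at the same value, and differed by -0.54 (SE 0.18). Its second probe set gave -0.49. The 15 endothelial markers, whose cells express type IV collagen, averaged 6.16 to 6.34 on the water arrays and 6.08 to 6.51 on the phenobarbital arrays. Of the 15, 9 had a positive difference, and 7 lay below the 40th percentile on all arrays of either group. Their part in the Col4a1 and Col4a2 values was not tested.

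Lama3 read 7.92, 7.71 and 7.90 with water and 7.07, 7.16 and 7.74 with phenobarbital, a difference of -0.52 (SE 0.18). Vtn read 13.97, 14.05 and 13.96 against 13.92, 13.78 and 13.77, without overlap (-0.17, SE 0.07), and its second probe set gave -0.22. Neither gene passed. The 14 hepatocyte markers had a median difference of -0.05, with 12 of them negative, and their part in the Fn1 and Vtn values was not tested. Col1a2 (0.28, SE 0.11) and Col11a2 (-0.33, SE 0.14) were the other genes with an unadjusted p under 0.05. The widest positive differences, those of Lamb2 (0.32, SE 0.18), Col26a1 (0.32, SE 0.16) and Timp2 (0.30, SE 0.32), were within the spread of the arrays.

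The other genes followed in hepatocytes gave small values. Among collagens they were 0.27 for Col5a2, 0.25 for Col14a1, 0.15 for Col3a1, -0.12 for Col1a1, -0.12 for Col15a1 and -0.23 for Col18a1. Lama4 gave -0.30, Lamb1 -0.41 and Lamc1 -0.11. Sparc (0.15), Bgn (-0.20), Nid1 (-0.07), Tgfbi (-0.08), Postn (-0.26), Hspg2 (-0.04), Tnc (-0.04) and Lox (-0.20) did not pass either. Proteases and inhibitors ranged from -0.31 for Timp1 to 0.25 for Timp3, with Mmp13 at 0.19, Mmp12 at 0.17, Mmp8 at 0.02, Timp4 at -0.02, Mmp2 at -0.09, Mmp14 at -0.10, Mmp9 at -0.11 and Mmp19 at -0.19. The 95% intervals of 76 of the 78 genes excluded a 2-fold fall and those of 77 a 2-fold rise, each taken alone.

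In mesenchymal cells no matrix gene and no other probe set passed, a background of 0.0%. At an unadjusted p under 0.05 limma gave 6 probe sets of 5 genes, 4.48% against 3.4% of all probe sets, and 12 probe sets, the shown ones of 4 genes among them, had groups without overlap, 8.96% against 8.4%. The smallest p-value of the 6 was that of a Col5a1 probe set other than the shown one, low on every array (0.41, SE 0.11, unadjusted p = 0.00611 by limma). Its groups did not overlap. Others of the 6 were further probe sets of Timp2 (-0.29 and -0.21), Col19a1 (-0.21) and Fn1. Col3a1 was the 1 gene whose shown probe set was among the 6. It read 7.22, 7.53 and 7.48 with water and 7.77, 8.72 and 8.26 with phenobarbital, so all 3 phenobarbital arrays lay above all 3 water arrays. The difference was 0.84 (SE 0.23, 95% interval 0.30 to 1.38, unadjusted p = 0.00756, adjusted p = 1.0 by limma), 0.61 without the second phenobarbital array and 1.08 without the first. Its second, low probe set differed by 0.10. Col1a2, at 7.74, 8.03 and 8.10 against 7.99, 8.62 and 8.33, differed by 0.36 (SE 0.18), Col14a1 by 0.39 (SE 0.20) and Col5a2 by 0.27 (SE 0.23), and in each the first phenobarbital array lay within the range of the water arrays or below it. That array also had the lowest of the phenobarbital means of the stellate cell and fibroblast markers, which were 7.61, 7.98 and 7.98 against 7.55, 7.86 and 7.96 with water. Their part in the Col3a1 value was not tested. Another probe set of Fn1, low in mesenchymal cells, read 3.89, 4.0 and 4.07 against 4.51, 5.77 and 4.34 (0.89, SE 0.34), while the shown one differed by 0.14.

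Vtn differed by 0.47 (SE 0.34) in mesenchymal cells and Col5a3 by 0.40 (SE 0.21), beside a median of 0.51 over the 14 hepatocyte markers, all of which were positive and none of which passed. The first phenobarbital array, with the highest marker mean of 11.43, was the highest for Vtn, Fn1, Col18a1 and Col5a3. Lamb1 gave 0.46 (SE 0.30) and Lama4 0.43 (SE 0.30). The widest negative values were those of Mmp19 (-0.28, SE 0.18), Mmp9 (-0.26, SE 0.34) and Col4a3 (-0.19, SE 0.15), all within the spread of the arrays. The genes with the widest population differences gave small values, Sparc 0.15, Bgn -0.04, Nid1 0.22, Tgfbi -0.01, Timp3 0.19, Timp2 -0.04, Col4a1 0.14 and Col4a2 0.09. Further values were 0.04 for Col1a1, -0.05 for Col15a1, 0.17 for Col18a1, 0.12 for Lamb2, 0.21 for Lamc1, 0.04 for Postn, 0.09 for Hspg2, 0.05 for Tnc and 0.16 for Lox. Mmp13 gave 0.35, Mmp8 0.22, Mmp14 0.15, Mmp12 0.09, Mmp2 -0.05, Timp1 0.07 and Timp4 -0.16.

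**Figure D3:**
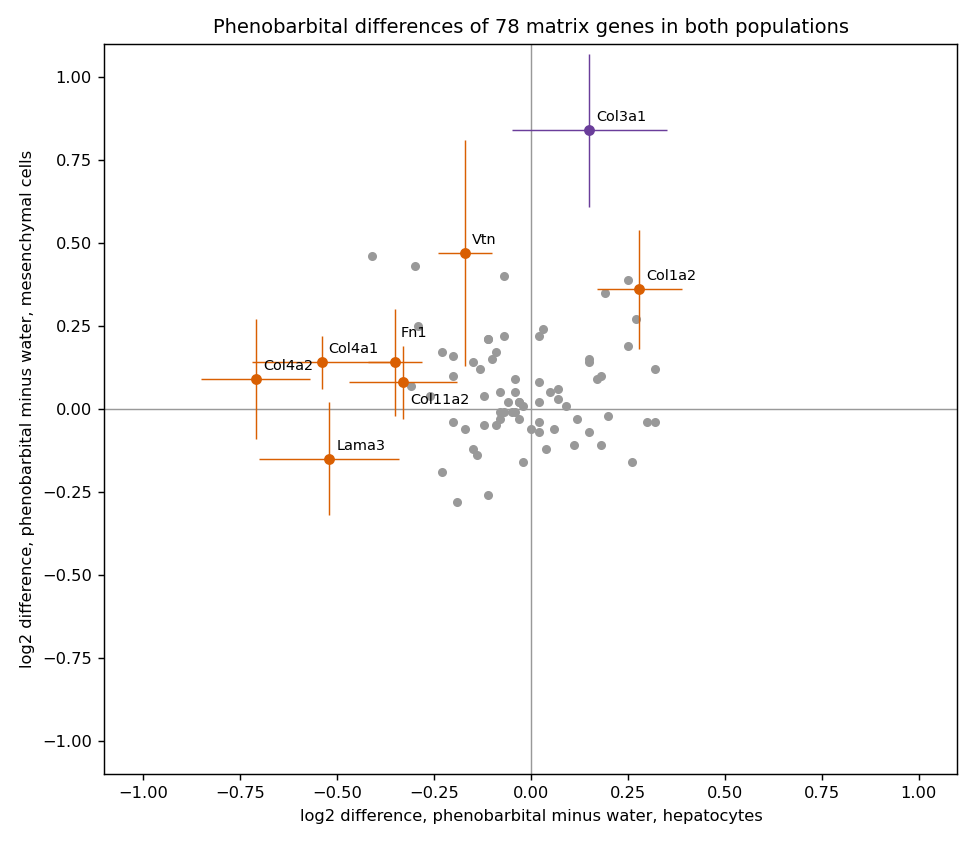
Log2 difference between phenobarbital and water in hepatocytes (horizontal) and in mesenchymal cells (vertical) for the 78 matrix genes; named points, with standard errors, had an unadjusted p under 0.05 in hepatocytes (orange) or mesenchymal cells (purple). None passed adjustment; Col4a2 (-0.71) and Col4a1 (-0.54) lie farthest left and Col3a1 (0.84) highest.

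The difference of the phenobarbital effects, mesenchymal minus hepatocyte, was tested on all 12 arrays. No probe set passed, a background of 0.0%, and 12 of the 134 had an unadjusted p under 0.05 by limma, 8.96% against 5.5% of all probe sets. They belonged to 9 genes, and the shown probe set was among them for 5, Col4a1 (0.68, SE 0.20), Col4a2 (0.80, SE 0.24), Fn1 (0.49, SE 0.18), Col11a2 (0.41, SE 0.18) and Lox (0.37, SE 0.16), at adjusted p-values of 0.87 or more. For the type IV pair the effect was negative in hepatocytes and near 0 in mesenchymal cells, so the population difference was wider with phenobarbital (5.30 and 3.93) than with water (4.62 and 3.14). For Fn1 it was narrower, at -3.37 against -3.86. The probe sets of Lox disagreed, the second giving -0.55, and for Lox no direction can be given. The widest positive values were those of Lamb1 (0.86, SE 0.46), Col4a2 and Lama4 (0.72, SE 0.36), followed by Col3a1 (0.69, SE 0.33), and the widest negative those of Lamc3 (-0.42, SE 0.22), Col26a1 (-0.36, SE 0.20) and Timp2 (-0.34, SE 0.38). For the remaining genes followed here the difference of effects ran from -0.20 for Lamb2 to 0.64 for Vtn, with Col18a1 at 0.39, Timp1 at 0.38, Lamc1 at 0.32, Postn at 0.30, Nid1 at 0.29 and Mmp14 at 0.25. Nearer to 0 were Mmp8 (0.20), Col1a1 (0.16), Bgn (0.16), Mmp13 (0.16), Col14a1 (0.14), Hspg2 (0.12), Tnc (0.09), Col1a2 (0.07), Col15a1 (0.07), Tgfbi (0.07), Mmp2 (0.04), Sparc (-0.01), Timp3 (-0.06), Mmp12 (-0.08), Mmp19 (-0.10), Timp4 (-0.14) and Mmp9 (-0.16), and the value of Col5a2 rounded to 0.

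**Figure D4:**
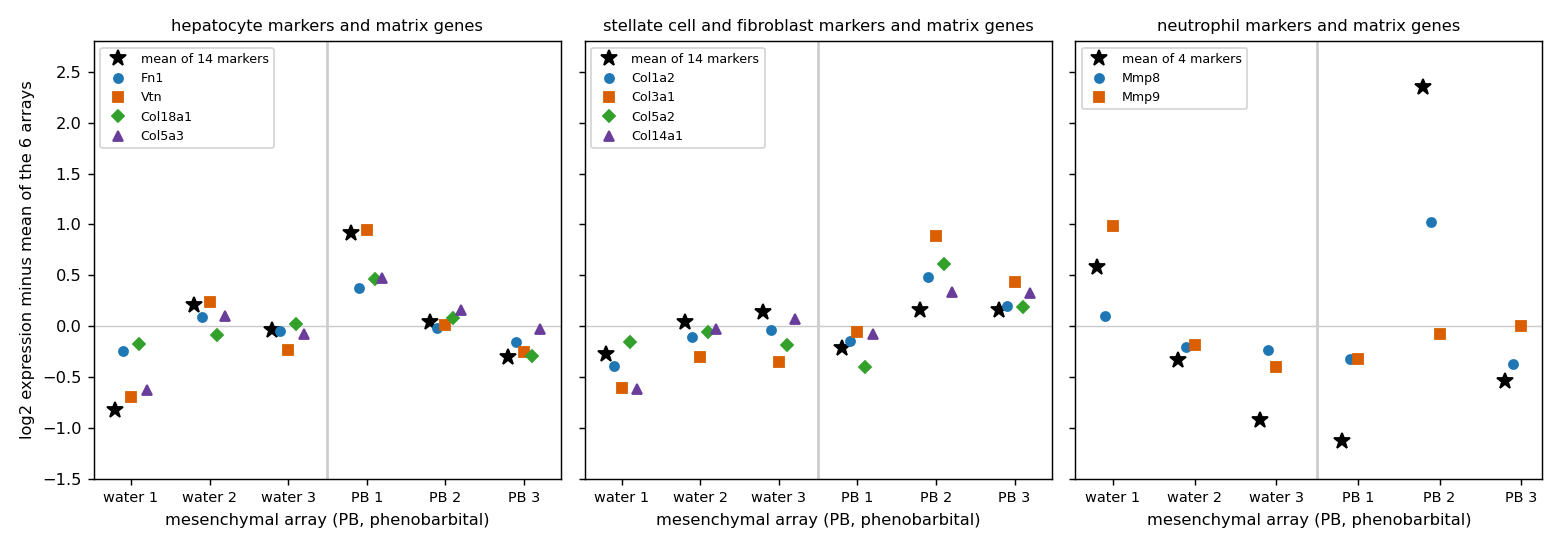
Log2 expression on each of the 6 mesenchymal arrays minus the mean of the 6, for marker lists (stars, mean of the list) and for matrix genes (other symbols), with the 3 water arrays left of the line. The shown probe sets of Vtn and Fn1 follow the hepatocyte markers, whose mean runs from 9.69 to 11.43, and Mmp8 is highest where the neutrophil marker mean is 9.68.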

How the data were processed

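RNA from the 2 cell populations was labelled with an Affymetrix 3′ kit and hybridised to 12 arrays, 3 per group, as the labels' protocols state. The authors deposited log2 values of 22626 probe sets made with RMA, per the submitters' processing notes. Version, scan batch and annotation were not given in the sources used here. RMA is made to equalise the distributions of the arrays, but the deposited values kept unequal medians. A population difference is therefore not centred on the majority of probe sets, whose median difference in water mice was -0.16. The number of arrays limits the precision. Array medians ran from 7.19 to 7.44, and arrays of a group correlated at 0.989 or more.

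Gene names came from the annotation of the platform: 20380 probe sets had 1 symbol, 691 several and 1555 none, and the latter 2 kinds named no gene. All 78 matrix genes matched the RefSeq gene table with the same symbol. Of 42 genes with several probe sets, 24 had all of them called one way and 4 (Col5a1, Lama5, Lamc1, Timp2) had opposite calls.

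Every probe set was tested without a filter with lmFit and eBayes (intensity trend) in limma 3.58.1 (R 4.3.3), adjusted over all probe sets by Benjamini-Hochberg, threshold 0.05. Populations and the difference of effects were fitted on 12 arrays and phenobarbital on the 6 of a population. The fits were tested on simulated data. Members, lists, the naming rule and the alternatives were chosen with earlier results of these data known. Genes always named were a set list of matrix genes, to which the widest 4 of each sign per role between populations, those at an unadjusted p under 0.05 with phenobarbital and the widest 3 of each sign were added. Fibrillar Col2a1 and Col11a1, the probe sets other than the shown ones, and genes named for a neighbour were added after their values were seen.

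Deviations of same-numbered water samples of the 2 populations correlated at 0.192, 0.159 and 0.148, a hint from the data that these samples may be pairs. With phenobarbital the correlations were 0.0528, -0.0232 and 0.0103. The main fits used no pairs, so their p-values are unpaired. A replicate block, other filters, units, scalings, weights and samples were alternatives. For phenobarbital against water the block joined same-numbered arrays of a population, whose deviations correlated at -0.227 to 0.167.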

Additional observations from a re-analysis of the deposited data

How the results depend on the processing

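All 29 population differences of at least 2-fold in water mice kept their direction and stayed past the adjusted p threshold in each of the 626 refits in which they were tested. The 29 had been picked as called and at least 2-fold in these same data. Refits without a phenobarbital array, or with only the filter, trend, block or source of the spread changed, could not alter the difference itself. In the other refits the sizes of these differences were less stable. The smallest were 0.23 for Lamc1 (1.20 in the main fit), 1.14 for Col3a1 (2.32), 2.12 for Timp2 (3.90) and -1.52 for Col5a3 (-2.72). Besides Lamc1, Col4a5 (-0.89), Lama3 (-0.90), Col15a1 (-0.90) and Lamb3 (-0.96) fell below 2-fold in at least 1 refit. None of the 13 phenobarbital or difference-of-effects results passed in any of 225 refits, and 1 reversed: the difference of effects for Lox was -0.10 with the mean of its probe sets. With 1 probe set per gene and the 40th percentile filter, which tested 43 of the 78 genes, the genes lower in mesenchymal cells numbered 18 both with water and with phenobarbital. With a filter on the mean, which tested 32, they numbered 12 and 12, and those higher with phenobarbital 17. Fewer genes were tested in these fits. Centred on array medians or on 75th percentiles, the genes at least 2-fold lower with phenobarbital numbered 13 each. With the replicate block 23 genes were higher and 35 lower with water, 26 and 33 with phenobarbital, and none passed for phenobarbital, so that no count moved by more than 1.5 times. The block ended the calls of Col6a1, Lama1 and Timp1 with water and of Col11a2, Col9a2 and Mmp9 with phenobarbital and changed no other. Leaving out single arrays ended 12 calls with water and 6 with phenobarbital at least once and added 6 and 7. The 6 ended with phenobarbital were those of Col11a2, Col9a1, Col9a2, Mmp20, Mmp23 and Mmp9. Low signal over background limits the 28 genes that were low on all arrays.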
